A study of Rattus norvegicus with 6 samples.

Results

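Chemokines are small secreted proteins that attract leukocytes, and their receptors are G protein-coupled receptors on those cells. Genes with a rat symbol of the form Ccl, Cxcl, Ccr or Cxcr followed by a number were followed in liver RNA of rats given a metal chelator. The gene table held 49 such symbols, 47 of them were matched by 77 probes on the array, and Ccr8 and Cxcl3, with no matched probe, were not analysed here. These 47 genes were among 15284 named genes on the array. The rule that picks them uses names alone, though the family itself was taken up with earlier results of these data known.

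The rats were male Sprague-Dawley (Crl:CD(SD)) animals, 5 weeks old when bought, on a basal diet. In the NTA group 3 rats received nitrilotriacetic acid trisodium monohydrate, a chelator of metal ions, at 1000 mg/kg/day, and 3 vehicle rats received no NTA. The labels name the vehicle as purified water in one place and corn oil in another, and give the time as 28 days or as 9 weeks. Total RNA of each liver was labelled with Cy3 and read on 1 single-colour array, so each group had n = 3 rats.

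Chemokine names follow the spacing of the first conserved cysteines: they are adjacent in the CC family (Ccl) and separated by another residue in the CXC family (Cxcl). Ligands are held on heparan sulfate of the vessel wall and signal through Ccr and Cxcr receptors, inhibitory G proteins and arrestins. In the liver, Kupffer cells, sinusoidal endothelium, stellate cells and hepatocytes can all make them, and they direct the traffic of monocytes, neutrophils and lymphocytes through the sinusoids. Some, such as Cxcl12, are made continuously, while others, such as Ccl2, Cxcl1 and Cxcl10, are best known as genes switched on by inflammatory cytokines.

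As examples of control regions, the windows around the starts of 5 CXC genes are given from 250 bases before to 50 bases after the start (RefSeq, assembly GRCr8, 5′ to 3′ on the strand of the gene). Of the 47 genes 36 had such a window. Cxcl12 and Cxcl1 are shown because their groups did not overlap, and Cxcl9, Cxcl10 and Cxcl11 because they are 3 neighbouring genes for ligands of the same receptor. Capitals mark every match, on either strand, to the kappa-B consensus (the binding motif of NF-kB), the TATA box TATAAA, the interferon-gamma activated site (GAS) TTCNNNGAA, the core of the interferon-stimulated response element (ISRE) and the GC box GGGCGG.
Cxcl12, chr4:152060531-152060830, + strand: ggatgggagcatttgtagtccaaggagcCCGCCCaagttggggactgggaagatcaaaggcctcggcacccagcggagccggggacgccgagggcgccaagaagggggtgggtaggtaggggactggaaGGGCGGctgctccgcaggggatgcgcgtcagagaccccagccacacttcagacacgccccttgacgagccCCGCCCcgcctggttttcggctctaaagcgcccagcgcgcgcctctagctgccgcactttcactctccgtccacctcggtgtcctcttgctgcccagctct
Cxcl1, chr14:17479272-17479571, - strand: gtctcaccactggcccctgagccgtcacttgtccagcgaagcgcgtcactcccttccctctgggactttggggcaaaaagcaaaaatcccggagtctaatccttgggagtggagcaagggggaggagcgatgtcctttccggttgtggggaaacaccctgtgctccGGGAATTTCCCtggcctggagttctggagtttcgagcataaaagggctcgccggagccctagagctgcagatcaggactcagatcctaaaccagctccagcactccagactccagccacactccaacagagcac
Cxcl11, chr14:15973478-15973777, + strand: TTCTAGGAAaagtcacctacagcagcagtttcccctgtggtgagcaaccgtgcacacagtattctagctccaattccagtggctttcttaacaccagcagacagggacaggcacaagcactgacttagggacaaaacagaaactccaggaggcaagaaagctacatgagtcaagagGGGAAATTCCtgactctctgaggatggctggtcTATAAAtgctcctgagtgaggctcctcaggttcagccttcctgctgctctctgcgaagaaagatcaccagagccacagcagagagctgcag
Cxcl10, chr14:15988816-15989115, + strand: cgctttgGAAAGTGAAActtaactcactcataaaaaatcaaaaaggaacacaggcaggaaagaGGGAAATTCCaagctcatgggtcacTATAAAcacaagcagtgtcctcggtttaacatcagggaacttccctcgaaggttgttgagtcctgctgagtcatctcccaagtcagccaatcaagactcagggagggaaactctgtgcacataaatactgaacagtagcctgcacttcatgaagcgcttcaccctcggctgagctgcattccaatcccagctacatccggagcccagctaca
Cxcl9, chr14:16006916-16007215, + strand: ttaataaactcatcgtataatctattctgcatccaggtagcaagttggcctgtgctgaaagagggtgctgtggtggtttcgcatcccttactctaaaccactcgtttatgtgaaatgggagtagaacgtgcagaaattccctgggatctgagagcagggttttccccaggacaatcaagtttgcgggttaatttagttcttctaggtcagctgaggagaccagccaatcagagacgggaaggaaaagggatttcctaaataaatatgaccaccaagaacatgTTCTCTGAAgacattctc

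In these windows Cxcl12 held 3 GC boxes and none of the other motifs, and Cxcl1 held a kappa-B match at position −84 relative to the start, which overlaps a second match on the opposite strand. Cxcl10 held a kappa-B match, a TATA box match at −162 and an ISRE core. Cxcl11 held a kappa-B match, a TATA box match at −41 and a GAS match. Cxcl9 held a GAS match, which lies after the start. No match to one motif overlapped a match to another motif in any of the 36 windows. The kappa-B consensus was found in 8 of the 36 windows (Ccl9, Ccl20, Ccr3, Cxcl1, Cxcl2, Cxcl6, Cxcl10 and Cxcl11) and in 4.18% of 33469 windows of all genes. The other shares over all genes were 14.2% for the TATA box (10 of the 36), 8.87% for GAS (6), 3.92% for the ISRE core (2) and 33.1% for the GC box (9). The GC box was in Ccl7, Ccl24, Ccl27, Ccl28, Cxcl2, Cxcl6, Cxcl12, Cxcl14 and Cxcr4, and the ISRE core in Ccl19 and Cxcl10. Cxcl2 and Cxcl6 thus held both a kappa-B match and a GC box. A match is a run of letters and does not show that a factor binds there.

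The arrays were of similar quality: 62.4% to 64.5% of probes were well above background on each. Vehicle replicate 3 had a lower local background than the others (median 40, the others 54 to 61); no other array shared its slide or its scan day, while the 3 NTA arrays shared a slide with no vehicle array. Slide and treatment therefore cannot be told apart. The tissue label was borne out by all 10 hepatocyte markers listed, Alb and Apoa1 among them, whose mean level lay between 7.54 and 7.79 on each array. Levels here are log2 processed signal relative to the 75th percentile of the same array, so 0 is the level of a fairly bright probe. Levels of different genes come from different probes and are not compared.

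Most of the family could be measured in these livers. Of the 47 genes, 31 (66.0%) had a probe that the scanner software called well above background on each of the 3 arrays in either group, and were tested, against 73.6% of all named genes. The 31 were 15 CC ligands, 9 CXC ligands, 5 CC receptors and 2 CXC receptors. On all 6 arrays 28 were above background. The other 3, Ccl1, Ccl17 and Ccr7, were tested only because all NTA arrays detected them, a rule that favours genes higher with NTA; in each the signal of vehicle replicate 3 was not well above background. Fewer cells of a type and less RNA per cell cannot be told apart in whole liver.

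The remaining 16 genes were not tested. In 9 of them, Ccl7, Ccl20, Ccl25, Ccl26, Ccl28, Ccr3, Ccr4, Cxcr1 and Cxcr5, no probe was well above background on any array. Ccr10 and Cxcr6 were above background on 4 arrays each, 2 in each group, and Ccr2, the monocyte receptor for Ccl2, on 1 vehicle array. The last 4 were above background only on NTA arrays: Cxcl2 on 2 arrays, and Cxcl6, Ccr1 and Cxcr2, the receptor for neutrophil-attracting ligands, on 1 each. In Cxcl6 that array was NTA replicate 2, at −2.19 against −7.26 to −6.65 on the other 5 arrays, and its second probe was not well above background on any array. In Cxcr2 and Ccr1 it was NTA replicate 3, at −4.09 and −4.81. These are single-array values with no test.

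In no member did the difference between NTA and vehicle pass the test across all features. The limma fit with Benjamini-Hochberg adjustment called 0 of 31 genes at an adjusted p under 0.05, where 9 of 30353 features, or 0.0297%, were called in all (4 without NTA replicate 1 and 1 without NTA replicate 2). At an unadjusted p under 0.05 there was 1 gene of 31, Cxcl12, against 7.57% of all features (3.66% higher with NTA and 3.91% lower). That count was 4 without vehicle replicate 2 or NTA replicate 3, 3 without vehicle replicate 1 or NTA replicate 1, 2 without NTA replicate 2 and 1 without vehicle replicate 3. The groups did not overlap in 3 of the 31 genes, against 13.6% of all features (5.57% higher and 8.03% lower): Ccl19 and Cxcl1 were higher with NTA and Cxcl12 was lower.

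Of the 31 genes tested, 18 lay above 0 and 13 below (NTA minus vehicle), with a median log2 difference of 0.16. Over all features 43.9% lay above 0 and the median was −0.03. With normexp background correction 15 of the 31 lay above 0, and 15 of 28 did when only genes above background on all arrays were kept. By role, the median was 0.23 for the 24 ligands (15 above 0) and −0.04 for the 7 receptors (3 above 0). The ligand median was 0.36 without vehicle replicate 2, 0.11 without NTA replicate 3 and 0.09 without vehicle replicate 3. Only Ccl1 differed by more than 1 on the log2 scale (1.37), and that value was 0.47 without vehicle replicate 3, where Ccl1 was not above background. Leaving out some array turned the sign of 12 of the 31 genes, 10 of which differed by less than 0.2; the other 2 were Cxcl10 and Cxcl13.

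**Figure D1:**
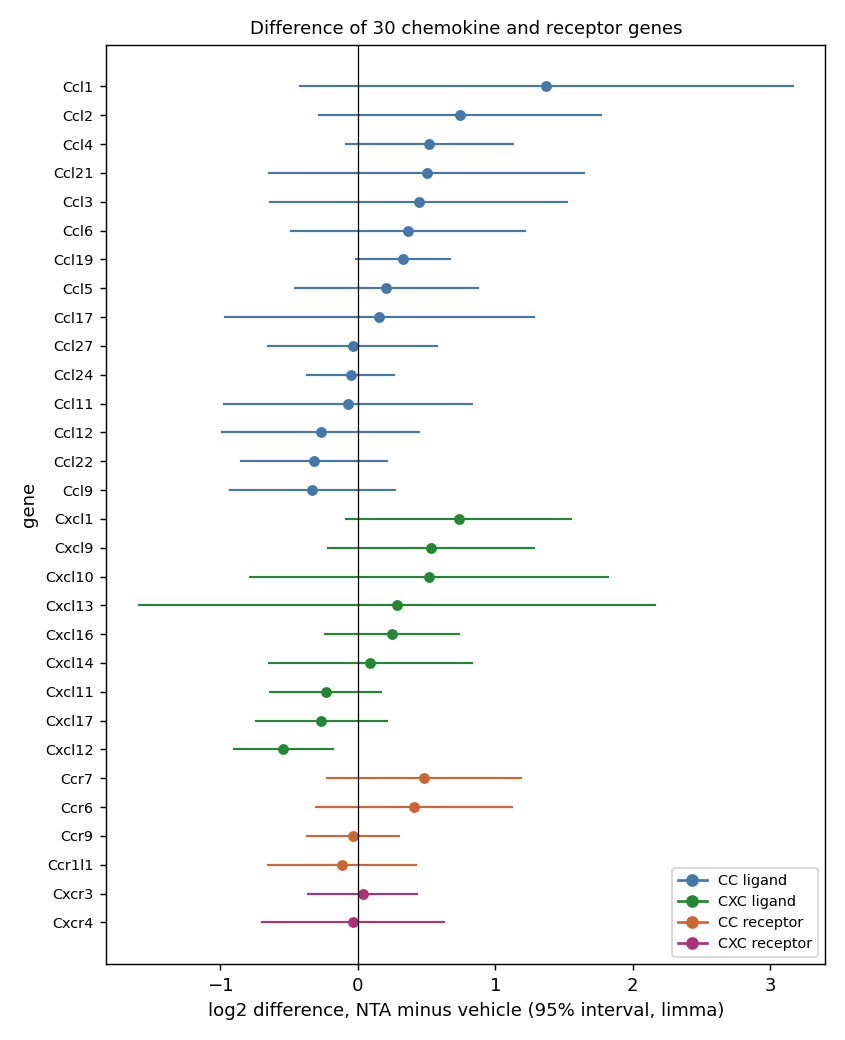
Log2 difference between NTA and vehicle (x axis, NTA minus vehicle; lines are 95% intervals from the limma fit, n = 3 rats per group) for 30 of the 31 genes tested (y axis), coloured by role. The interval of Cxcl12, from −0.90 to −0.18, is the only one that leaves out 0, and the intervals of Ccl1 and Cxcl13 are wide.

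Cxcl12 had the smallest p of the family. Its product, also known as SDF-1, holds Cxcr4-bearing haematopoietic cells and lymphocytes in place. On the vehicle arrays its brightest probe read 5.93, 6.19 and 6.32, and on the NTA arrays 5.80, 5.52 and 5.49. All 3 NTA rats lay below all 3 vehicle rats, with the closest pair 5.93 and 5.80. The means were 6.15 ± 0.20 and 5.60 ± 0.17 (SD, n = 3), a log2 difference of −0.54 (SE 0.15; limma, unadjusted p = 0.00945, Benjamini-Hochberg adjusted p = 0.523), which is 1.46-fold lower. The adjusted p did not pass the threshold.

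Cxcl12 has splice forms, and its 3 probes were designed to 2 RefSeq transcripts. The probe above is alone on its transcript. The other 2 probes, both on the other transcript, gave log2 differences of −0.22 (SE 0.12) and −0.21 (SE 0.14) in a limma fit of all probes, neither past the adjusted threshold. The groups did not overlap in the first of these, at 5.02 to 5.08 with vehicle and 4.66 to 5.00 with NTA, and overlapped in the second, at 4.24 to 4.39 and 3.93 to 4.38. All 3 probes had the same sign, and the mean of the probes gave −0.32. Whether the probes differ from each other was not tested.

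The receptor of Cxcl12, Cxcr4, stood at −3.55, −3.17 and −2.47 with vehicle and −3.07, −3.30 and −2.93 with NTA. The NTA values lay inside the vehicle range. The log2 difference was −0.04 (SE 0.28; limma, adjusted p = 0.986), with a 95% interval from −0.70 to 0.62, and the second probe gave 0.10. Without vehicle replicate 3 the difference was 0.26. The atypical receptor Ackr3, which takes up Cxcl12, had a log2 difference of 0.14 (SE 0.19).

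Cell types known to make Cxcl12 were read from their markers. All 9 sinusoidal endothelium markers measured lay above 0, with a median of 0.52, and their mean level was 0.82 to 1.097 with vehicle and 1.26 to 1.48 with NTA. The 3 smallest p belonged to Tie1, Lyve1 and Emcn, at 0.63 (SE 0.14), 0.54 (SE 0.12) and 0.78 (SE 0.18), none past the adjusted threshold. Of 9 stellate cell and fibroblast markers 3 lay above 0, with a median of −0.15. Their mean level was 0.18 to 0.20 with vehicle and −0.04 to 0.36 with NTA, and Lum was not above background. The part of these cells in the Cxcl12 value was not tested.

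Among the Cxcl ligands of Cxcr2, which draw neutrophils, only Cxcl1 passed the filter. Ppbp, a platelet ligand of the same receptor, was faint, with means of −4.44 with vehicle and −4.77 with NTA. Its log2 difference was −0.33 (SE 0.12, limma, adjusted p = 0.621). Cxcl1 read −0.65, −0.81 and −0.71 with vehicle and 0.83, −0.31 and −0.51 with NTA. Every NTA rat lay above every vehicle rat, but NTA replicate 1 stood well above the other 2. The means were −0.73 ± 0.08 and 0.01 ± 0.72 (SD, n = 3), a log2 difference of 0.73 (SE 0.34; limma, unadjusted p = 0.0710, adjusted p = 0.687). Without NTA replicate 1 it was 0.32.

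Of 4 neutrophil markers measured, 3 lay above 0 and none passed the adjusted threshold. Their median was 1.13 (0.80 to 1.33 when an array was left out), and their mean level was −1.25 to −0.80 with vehicle and −0.49 to 0.20 with NTA. The alarmins S100a9 and S100a8 had log2 differences of 1.37 (SE 0.44) and 1.21 (SE 0.43), and the siderophore-binding protein Lcn2 of 1.05 (SE 0.34), with limma adjusted p between 0.559 and 0.608. The granule gene Camp was at −0.08 (SE 0.22). The granule genes Elane and Mmp8 were above background on 0 arrays, Ngp on 1 and the receptor Csf3r on 4. The markers were highest on NTA replicate 3, and Cxcl1 on NTA replicate 1. The part of neutrophils in the Cxcl1 value was not tested.

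The ligands of Ccr2, which recruit monocytes, were Ccl2 and Ccl12, while Ccl7 was not above background. Ccl2 read −1.63, −2.65 and −2.78 with vehicle and −0.83, −1.89 and −2.10 with NTA. The groups overlapped, because vehicle replicate 1 lay above 2 of the NTA rats. The log2 difference was 0.74 (SE 0.43; limma, adjusted p = 0.744), with a 95% interval from −0.28 to 1.77, and without NTA replicate 1 it was 0.35. Ccl12 had a log2 difference of −0.27 (SE 0.30), at 2.06 to 2.66 with vehicle and 1.78 to 2.78 with NTA.

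The ligands of the Ccr1 group, made by macrophages and lymphocytes, were all 5 measured. Ccl4 came closest to the threshold, at −1.33, −0.94 and −1.96 with vehicle and −0.89, −0.98 and −0.79 with NTA. The NTA rats lay within a narrow band, which the highest vehicle rat also reached. The log2 difference was 0.52 (SE 0.25; limma, unadjusted p = 0.0814, adjusted p = 0.696), its second probe gave 0.60, and without vehicle replicate 3 it was 0.25. Ccl3, Ccl5 and Ccl6 had log2 differences of 0.44 (SE 0.45), 0.21 (SE 0.28) and 0.37 (SE 0.35). Ccl9 went the other way, at −0.33 (SE 0.25), and its second probe gave −0.27. Their genes lie side by side on the chromosome in the gene table, in the order Ccl5, Ccl9, Ccl6, Ccl3 and Ccl4.

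In Ccl3, Ccl4, Ccl5 and Ccl6 vehicle replicate 3 was the lowest array and NTA replicate 3 the highest, as they were in Cxcl9, Cxcl16 and Ccr6 (7 genes in all). These genes were singled out after their values were seen, and the arrays in between differed in order. Ccl3 ran from −1.19 to 0.67, and Ccl6 from 2.95 to 4.49 between those 2 arrays. Without vehicle replicate 3 the differences of Ccl3, Ccl5 and Ccl6 were 0.11, 0.01 and 0.08.

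The 3 ligands of Cxcr3, induced by interferon-gamma, did not share a sign. Cxcl9 had a log2 difference of 0.53 (SE 0.31), at −0.42 to 0.44 with vehicle and 0.01 to 1.02 with NTA. Cxcl10 had 0.52 (SE 0.54), and both its lowest array, vehicle replicate 3 at −0.94, and its highest, vehicle replicate 2 at 1.25, were in the vehicle group. Cxcl11, next to them in the genome, was at −0.24 (SE 0.17). Without vehicle replicate 3 the values were 0.32, −0.02 and −0.37. The receptor Cxcr3, carried by activated T and NK cells, read −3.14, −3.02 and −3.14 with vehicle and −2.96, −3.41 and −2.84 with NTA, a log2 difference of 0.03 (SE 0.16; limma, adjusted p = 0.978). Its 95% interval ran from −0.36 to 0.43.

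The homeostatic ligands that guide lymphocytes and dendritic cells were also measured. Ccl19, a ligand of Ccr7, read −0.23, −0.21 and −0.17 with vehicle and 0.16, 0.36 and −0.13 with NTA. The groups did not overlap, but NTA replicate 3 lay just above the vehicle rats. The log2 difference was 0.33 (SE 0.14; limma, unadjusted p = 0.0592, adjusted p = 0.682), a fold of 1.25, and without NTA replicate 2 it was 0.21. Ccl21, the other ligand of Ccr7, had 0.50 (SE 0.48), with 1 NTA rat below all vehicle rats, at −1.95, and the other 2 above them; without that rat, NTA replicate 1, it was 1.08, and without NTA replicate 3 it was 0.19.

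Ccr7 itself was faint, at −4.47, −4.39 and −5.35 with vehicle and −3.90, −4.42 and −4.45 with NTA. The 2 vehicle arrays that detected it overlapped the NTA arrays. Its log2 difference was 0.48 (SE 0.29; limma, adjusted p = 0.754), 0.17 without vehicle replicate 3 and −0.07 with normexp background correction. Ccr6, found on B cells and some T cells, read −3.65, −2.85 and −3.80 with vehicle and −3.39, −3.01 and −2.67 with NTA. The groups overlapped, and the log2 difference was 0.41 (SE 0.30; limma, adjusted p = 0.797), or −0.01 with normexp. It was 0.23 without vehicle replicate 3 or NTA replicate 3, and 0.70 without vehicle replicate 2. Its ligand Ccl20 was not above background.

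Cxcl13, the B cell attractant, varied widely between rats of a group. It ran from −3.20 to −0.34 with vehicle and from −2.63 to −0.89 with NTA, and the log2 difference was 0.29 (SE 0.78), with −0.41 when vehicle replicate 1 was left out and 1.02 when replicate 2 was. Its second probe spread as widely, from −4.68 to −1.73 with vehicle and −4.14 to −2.09 with NTA. B and plasma cell markers lay above 0 in 5 of 5 genes, with a median of 0.66 (0.34 without vehicle replicate 1), at mean levels of −2.80 to −2.19 with vehicle and −2.24 to −1.87 with NTA. Their lowest array was vehicle replicate 1, at −2.80, which was also the lowest for Cxcl13. They were nearly as low on vehicle replicate 2, at −2.78, which was the highest array for Cxcl13. Cxcr5, the receptor of Cxcl13, was not above background, and the part of B cells in the Cxcl13 value was not tested.

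Ccl1, a ligand of Ccr8, had the largest difference of the 31 genes, and only Cxcl13 had a wider interval. It read −4.13, −4.77 and −7.15 with vehicle and −3.49, −4.17 and −4.27 with NTA. The lowest value, on vehicle replicate 3, was not well above background, and the other vehicle values overlapped or lay close to the NTA range. The log2 difference was 1.37 (SE 0.75; limma, adjusted p = 0.731), 0.47 without vehicle replicate 3 and 0.25 with normexp.

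**Figure D2:**
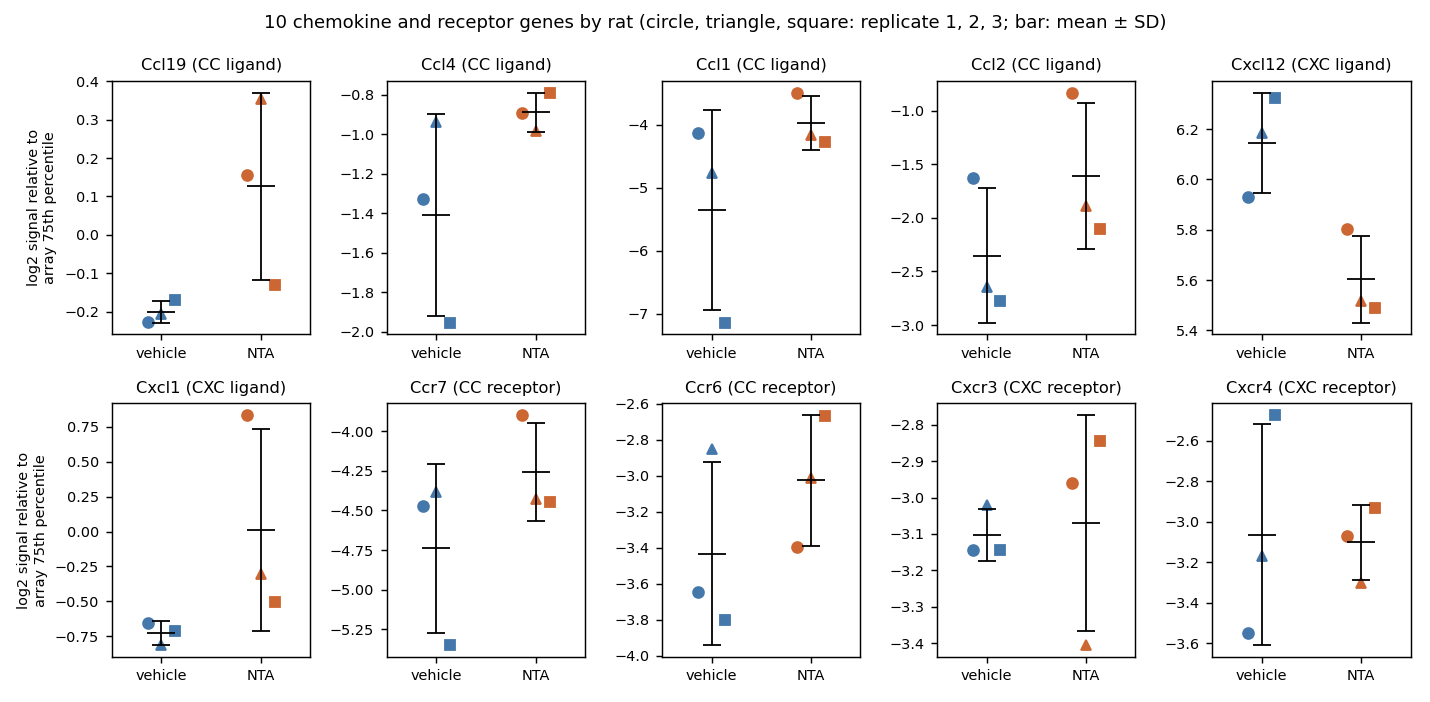
Level of each gene in log2 units, scaled to the 75th percentile (y axis, a scale of its own in each panel) in vehicle and NTA rats for 10 genes; points are rats, marked by replicate, and bars are mean ± SD (n = 3). The groups do not overlap for Cxcl12, Ccl19 and Cxcl1, and for Ccl1 and Ccr7 vehicle replicate 3 lies apart from the others.

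In the remaining ligands no difference passed the test. Ccl24, an eosinophil attractant, had a log2 difference of −0.05 (SE 0.13) with a 95% interval from −0.37 to 0.27, and its dimmer second probe gave 0.29. Ccl11, another ligand of Ccr3, was at −0.07 (SE 0.38), and Ccl27, the skin chemokine, at −0.04 (SE 0.26). The Ccr4 ligands Ccl17 and Ccl22 were at 0.16 (SE 0.47) and −0.32 (SE 0.22). The 3 probes of Ccl22 disagreed in sign, with 1 at 0.29 and the other at −0.29. Cxcl16, a scavenger-receptor ligand for Cxcr6, was at 0.25 (SE 0.20) and Cxcl17 at −0.26 (SE 0.20). Cxcl14 was at 0.09 (SE 0.31) while its second probe gave −0.39. Opposite signs among probes were thus found in 4 genes, Ccl22, Ccl24, Cxcl14 and Cxcr4, and the same sign in 7, while 20 genes had 1 probe tested. Among those 20, Ccl11, Ccl12, Ccr1l1, Ccr6, Ccr9 and Cxcl17 each had a second probe that did not pass the filter. That probe was above background on 0 arrays in Ccr6 and Ccr9, 2 in Ccl12 and 1 in each of the others. In Ccr9 its vehicle mean was −6.89, against 0.41 for the probe tested. The cause of such gaps was not tested. Of the receptors not yet given, Ccr9, the gut-homing receptor, was at −0.04 (SE 0.14) and Ccr1l1 at −0.12 (SE 0.22).

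The spread between rats of a group was wider here than in the median named gene. The median SD over the 31 genes was 0.35 in the vehicle group and 0.41 in the NTA group, against 0.17 and 0.14 over all named genes tested. Among genes above background on all 6 arrays the medians were 0.32 and 0.39 for the 28 genes and 0.16 and 0.14 for 10847 named genes. The family was also dimmer, with a median level of −0.30 against 0.30 for all named genes tested. Among genes above background on all 6 arrays it was −0.10 against 0.46. Spread was not compared at matched levels. In 25 of the 31 genes the difference between the groups was smaller than the larger of its 2 SDs, as it was for 73.8% of all features.

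The extremes often fell on 2 arrays. Vehicle replicate 3 was the lowest array for 12 of the 31 genes (38.7%), against 16.4% of all features. NTA replicate 3 was the highest for 11 (35.5%), against 12.6%. The 12 genes were Ccl1, Ccl2, Ccl3, Ccl4, Ccl5, Ccl6, Ccl17, Ccr6, Ccr7, Cxcl9, Cxcl10 and Cxcl16. Among them Ccl1, Ccl17 and Ccr7 passed the filter only through the NTA arrays. Vehicle replicate 3 was the only array where their tested probes were not above background, so the filter favoured their place in this count. Cxcl12, Cxcl17, Ccl27, Ccr9 and Cxcr4 were in contrast highest on vehicle replicate 3. Without that array 19 of the 31 genes lay above 0 with a median of 0.08 (all features −0.02), and 5 changed sign: Ccl17, Ccl27, Ccr9, Cxcl10 and Cxcr4.

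**Figure D3:**
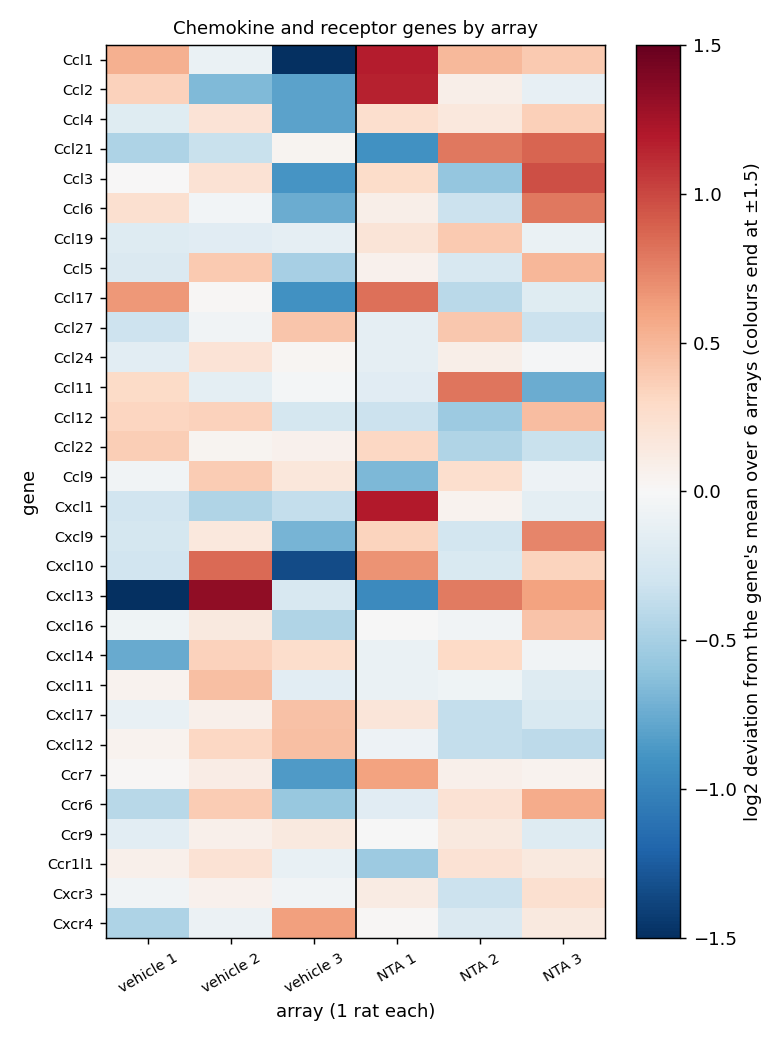
Deviation of each gene's log2 signal from its own mean over the 6 arrays (colour; values past the ends of the scale take the end colour), for 30 of the 31 genes (y axis) on each array (x axis, vehicle left of the line). Vehicle replicate 3 is blue for most inflammatory CC ligands and for Cxcl9 and Cxcl10, and red for Cxcl12 and Cxcr4.

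Macrophage, NK cell and neutrophil markers had the same lowest and highest arrays, as had the signalling and the cytokine lists given below. The neutrophil list was nearly as low on vehicle replicate 2 (−1.24) as on vehicle replicate 3 (−1.25). All 12 Kupffer cell and macrophage markers measured lay above 0, with a median of 0.35 (0.07 without vehicle replicate 3 and 0.12 without NTA replicate 3). Their mean level was 2.10 to 3.05 with vehicle and 2.66 to 3.57 with NTA, lowest on vehicle replicate 3 and highest on NTA replicate 3. The scavenger receptor Marco was the only one with an unadjusted p under 0.05, at 1.27 (SE 0.48; limma, adjusted p = 0.621), or 0.81 without vehicle replicate 3. The 5 NK cell markers measured had a median of 0.27 (−0.16 without vehicle replicate 3 and −0.03 without NTA replicate 3), while Ncr1 was above background on 1 array. The 6 T cell markers had a median of 0.05, at −2.46 to −2.09 with vehicle and −2.75 to −1.76 with NTA, with Cd3e and Cd5 above background on 0 arrays and Cd2 on 4; the median was −0.08 without vehicle replicate 3 and −0.23 without NTA replicate 3. The 3 dendritic cell markers had a median of −0.12, or −0.23 without vehicle replicate 3 and 0.02 without NTA replicate 1. The hepatocyte markers lay below 0 in 10 of 10 genes, with a median of −0.15. The part of these cells in the chemokine values was not tested.

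The erythroid, platelet and biliary lists did not share that order. Of 7 erythroid markers 5 lay above 0 (median 0.48), of 4 platelet markers 4 (median 0.10) and of 5 biliary markers 4 (median 0.13). Without vehicle replicate 3 these medians were 0.31, 0.13 and 0.31. Their lowest arrays were vehicle replicates 1, 2 and 2. Over the marker lists, limma unadjusted p under 0.05 was counted against 7.57% of all features. The counts were 5 of 9 sinusoidal endothelium, 3 of 4 neutrophil, 2 of 5 B and plasma cell and 2 of 7 erythroid markers, all higher with NTA. They were 1 of 12 macrophage markers (higher), 1 of 10 hepatocyte markers (lower) and 0 in each of the other lists.

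**Figure D4:**
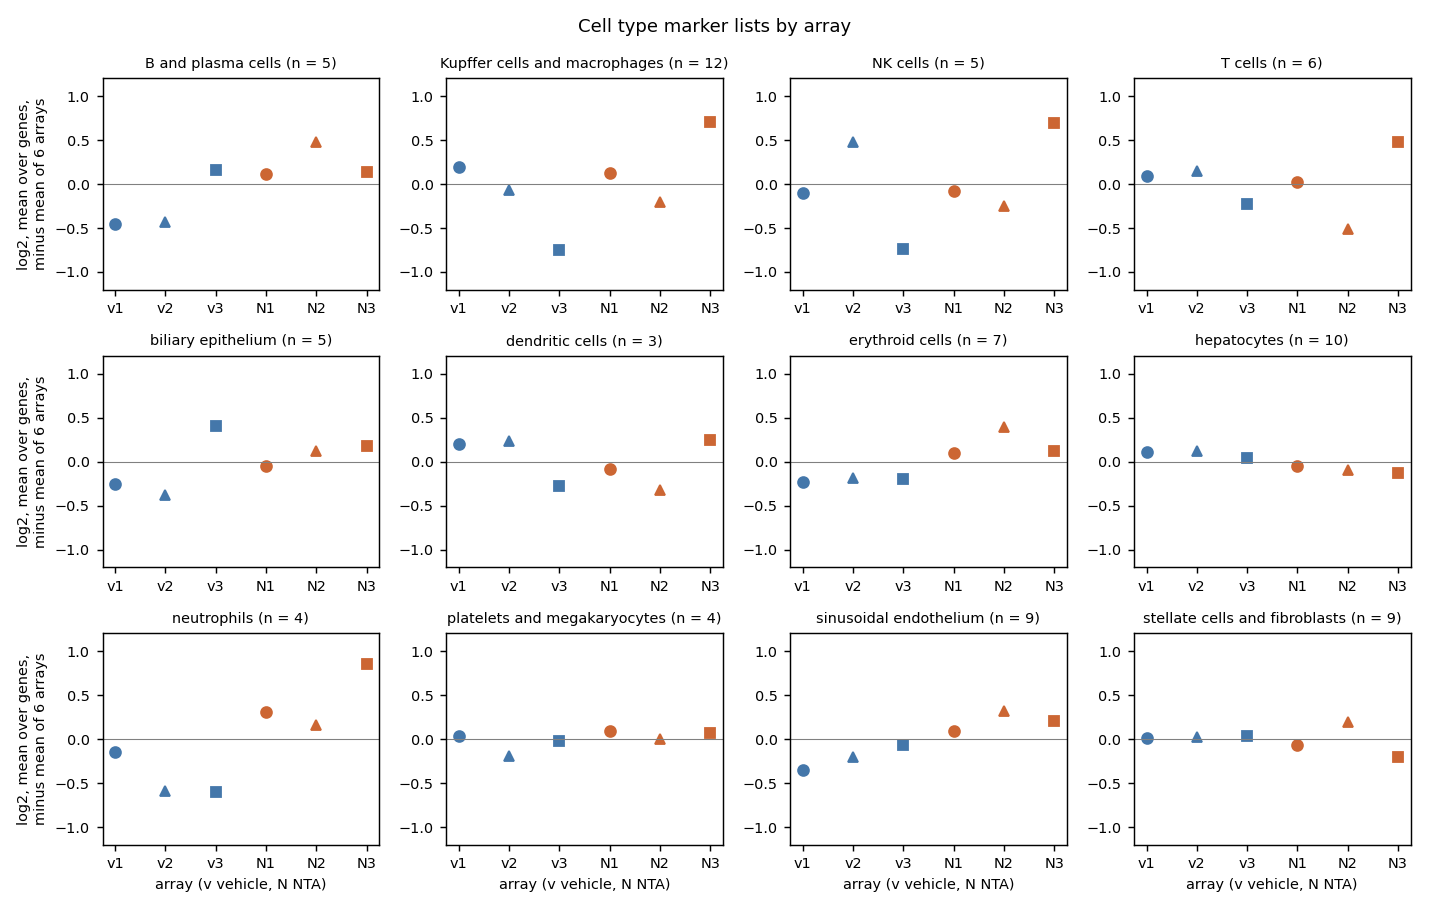
Mean log2 level of 12 cell type marker lists on each array (x axis), minus the mean of the 6 arrays (y axis); blue points are vehicle and orange points NTA, and n is the number of genes measured. The macrophage, NK cell and neutrophil lists are lowest on vehicle replicate 3 and highest on NTA replicate 3. The neutrophil list is also higher on all 3 NTA arrays than on the vehicle arrays.

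The rest of the pathway was read from lists chosen for their role. None of their genes passed the adjusted threshold in limma. Their counts stand against 43.9% of all features above 0 and 7.57% with an unadjusted p under 0.05. Of 7 other chemokines and atypical receptors measured, 4 lay above 0 and 1 had an unadjusted p under 0.05, Ppbp. The NK and T cell chemokine Xcl1 was at 0.46 (SE 0.29; 0.17 without vehicle replicate 3) and the membrane-bound Cx3cl1 at 0.13 (SE 0.13).

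Below the receptors, 18 signalling genes were measured, 13 above 0, with 2 higher and 1 lower at an unadjusted p under 0.05 (all features 3.66% and 3.91%). Their median was 0.18, or 0.09 without vehicle replicate 3 and 0.06 without NTA replicate 3. Gnai2, the inhibitory G protein subunit that couples chemokine receptors, read 4.88, 4.88 and 4.88 with vehicle and 5.11, 5.11 and 5.22 with NTA, a log2 difference of 0.26 (SE 0.10). The receptor kinase Grk5 was at 0.39 (SE 0.12), and the arrestin Arrb1, which ends receptor signalling, at −0.42 (SE 0.11). Their groups did not overlap, and their limma adjusted p lay between 0.518 and 0.615.

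Of 15 cytokine and NF-kB genes listed for chemokine induction, 7 lay above 0 and 0 had an unadjusted p under 0.05. Their median was −0.02 (from −0.04 to 0.15 when an array was left out). Nfkbia, at −0.37 (SE 0.38), encodes an inhibitor of NF-kB, so the list does not hold inducers alone. Il6, Il17a and Ifng were not above background. The smallest p belonged to the receptor Tlr2 at 0.86 (SE 0.38), the cytokine Tnf at 0.65 (SE 0.30) and Ltb at 0.34 (SE 0.22). Without vehicle replicate 3 these were 0.46, 0.49 and 0.16, and Tnf was 0.43 without NTA replicate 3. Tnf was highest on NTA replicates 3 and 1, at −1.32 and −1.55, and NTA replicate 2, at −2.40, lay within the vehicle range of −2.72 to −2.18.

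Genes that trim chemokines or hold them on heparan sulfate had a median of −0.04 over 8 (−0.13 without vehicle replicate 3), with 2 lower at an unadjusted p under 0.05. Sdc1, the main syndecan of hepatocytes, was at −0.49 (SE 0.15) and the sulfotransferase Hs3st1 at −0.59 (SE 0.16), with limma adjusted p of 0.549 and 0.525. Dpp4, the protease that removes the first residues of Cxcl12 and other chemokines, was at −0.09 (SE 0.12). Of 8 leukocyte adhesion genes 7 lay above 0, with a median of 0.34 (0.22 without vehicle replicate 3). The endothelial adhesion molecules Pecam1 and Icam1 were at 0.36 (SE 0.12) and 0.33 (SE 0.12), with groups that did not overlap and limma adjusted p of 0.583 and 0.621. Sele, Selp and Madcam1 were above background on 0 arrays and Itgam on 4.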

How the data were processed

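Cy3-labelled liver RNA of 3 NTA and 3 vehicle rats was read on Agilent one-colour arrays of design 035170 with Feature Extraction 10.7.1.1, per the file headers (10.7 per the submitters' processing notes). The deposited processed signal is a background-subtracted intensity, per the file headers. The authors' deposited series table holds a ratio, that signal over the array's 75th percentile: 100% of probes matched within 0.0001 plus 0.2%. Its column medians were 0.0977 to 0.0987 for vehicle and 0.0960 to 0.100 for NTA arrays, and it was not centred.

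Values were log2 processed signal minus log2 of the 75th percentile over 61657 non-control probes; 1 to 14 flagged probes per array were set to missing. Accessions named 27460 probes through the RefSeq table of assembly GRCr8, leaving 34197 unnamed. The array's design uses rn4, so no array coordinates are given. A probe was kept if well above background on all 3 arrays of a group, and the brightest probe stood for a gene, giving 30353 features. These were fitted in limma 3.58.1 (R 4.3.3; lmFit, eBayes, two-sided, Benjamini-Hochberg over all features, threshold 0.05). With 3 against 3 an exact permutation test cannot go below 0.1 and was not used. The labels give 3 animals per group; the number of arrays limits the precision.

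Normexp used the median spot and background signals with an offset of 50. In simulated data for this comparison (30353 features, 5 datasets), 60.8% of 2-fold and 94.6% of 4-fold changes were called. These shares are over all features, whose median SE was 0.15, against 0.28 for the 31 chemokine and receptor genes. They were not computed for the family and do not give its share. The Benjamini-Hochberg cut also depends on how many features change, and that number is not given here for the simulated data. The shares therefore cannot be carried over to these data. In the data 386 features differed by more than 1 on the log2 scale, and 9 features passed the adjusted threshold.

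Members and lists were chosen with earlier results of these data known. Per-array values were to be given for members with an unadjusted p under 0.05 or groups that did not overlap, the 2 smallest p of each role and the 3 largest differences, and for other lists the 3 smallest p; Ackr3 and Dpp4 were added for their tie to Cxcl12 after their values were seen. Leave-outs of single arrays for the pathway and marker lists, and for genes not given by array, were added after seeing the data. The values of 2 genes that entered the counts are not reported here.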

Additional observations from a re-analysis of the deposited data

How the results depend on the processing

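Of 158 recomputed differences of the 10 genes given by array, over up to 16 alternatives each, 149 kept their direction and 0 passed the adjusted threshold. That count was in part fixed in advance. The changes of filter, trend and robust, and the replicate block left the differences of these genes as they were. The series value table holds the same signal, and slide as a random block barely moved the values. For Cxcl12 these gave −0.5442 and −0.5432, against −0.5436 in the reported fit. Scan day as a block gave the same differences as leaving out vehicle replicate 3. Leaving out an array could not turn Cxcl12, Ccl19 or Cxcl1, whose groups did not overlap. Cxcl12 stayed below 0 in all 16, from −0.70 (normexp) to −0.32 (mean of probes), with unadjusted p from 0.00123 to 0.0343 and limma adjusted p from 0.379 to 0.767. The 9 that changed sign were Ccr6 (−0.0091), Ccr7 (−0.068) and Cxcr3 (−0.056) with normexp, Cxcr3 without NTA replicates 1 (−0.022) and 3 (−0.079), and Cxcr4 with the mean of probes (0.031), scan day as a block (0.26), and without NTA replicate 2 (0.063) or vehicle replicate 3 (0.26), with leave-outs of Cxcr4 from −0.28 to 0.26 and of Cxcr3 from −0.079 to 0.20. The causes were not tested. The count of chemokine and receptor genes at an unadjusted p under 0.05 was 1 of 31 in the reported fit. Without a filter the count was 2 of 47 (8.03% of all features), with Ccl7 added, a gene not above background. With trend and robust the count was 2 of 31 (7.36%), with Ccl19 added. When an array was left out the count was 1 to 4 (6.07% to 8.45%). The count of features past the adjusted threshold, 9, was 1 to 8 in the leave-outs. The ligand median ran from 0.09 to 0.36 and the receptor median from −0.08 to 0.20. With the replicate number as a block, Ccl1 and Ccl2 joined Cxcl12 (3 genes) and 0 features passed the adjusted threshold, with 7.65% at an unadjusted p under 0.05. Same-numbered arrays deviated from their group means with correlations of 0.17, −0.01 and −0.07 across features, so the numbers were not taken to pair rats. Signal over background limits what can be said of the 16 genes not tested.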
